A study of Homo sapiens with 2 samples.

Results

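The genes described here are 10 genes of mucus-secreting epithelium: the mucin genes MUC5AC, MUC5B, MUC1 and MUC13, the trefoil factor genes TFF1 and TFF3, the transcription factor gene SPDEF, the paralogs AGR2 and AGR3, and the glycosyltransferase gene GCNT3. They were chosen by symbol from 18944 genes in the deposited count table, and all 10 have a row there. RNA was sequenced from H1993, an established human lung adenocarcinoma line with amplified MET, the gene of a receptor tyrosine kinase. The resistant library came from H1993 cells selected in the MET kinase inhibitor PHA665752, with the dose raised from 1 nM to 1 µM and then held at 1 µM. Those cells spent 1 week in drug-free medium before experiments, while the treatment label of this library reads PHA665752. The parental library came from the unselected line, with DMSO as its treatment label. Both came from cells grown in RPMI-1640 with fetal bovine serum, and the labels do not say whether the resistant line is a clone or a pool. The comparison asks how expression in the drug-resistant cells differs from that in the line they were selected from. Each group has 1 library, so there is no replicate check and no test, and all values describe these 2 libraries.

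Goblet cells make the mucus gel of airway and gut. Gel-forming mucins such as MUC5AC and MUC5B are very large, cysteine-rich and heavily O-glycosylated proteins that are packed into granules, whereas MUC1 and MUC13 stay anchored in the apical membrane. SPDEF is an ETS-family transcription factor that drives goblet cell differentiation in mouse airway and intestine. AGR2 is a protein disulfide isomerase of the endoplasmic reticulum that mouse gut needs to make the mucin MUC2, and AGR3 is its close relative. Trefoil factors are small disulfide-bonded peptides secreted with mucins, and GCNT3 is the mucin-type enzyme that branches O-glycans into core 2 and core 4 structures.

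The reference promoters are shown here because members that lie side by side or differ in the same direction can be compared in them. RefSeq windows on build GRCh38.p14 were matched for 6 of the 10 members, namely MUC1, MUC13, SPDEF, AGR2, AGR3 and GCNT3. The 250 bases upstream of the start are printed for 4 of them, 5′ to 3′, with the matches of 6 searched motifs in capitals. MUC1 has a pair of overlapping windows in the table, and the upstream one is shown.
MUC1, chr1:155192916-155193165, minus strand: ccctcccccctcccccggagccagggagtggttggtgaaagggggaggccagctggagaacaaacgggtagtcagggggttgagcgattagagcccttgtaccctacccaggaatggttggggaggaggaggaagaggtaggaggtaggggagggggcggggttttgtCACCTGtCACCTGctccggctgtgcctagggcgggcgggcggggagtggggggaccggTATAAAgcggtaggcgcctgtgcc
MUC13, chr3:124934752-124935001, minus strand: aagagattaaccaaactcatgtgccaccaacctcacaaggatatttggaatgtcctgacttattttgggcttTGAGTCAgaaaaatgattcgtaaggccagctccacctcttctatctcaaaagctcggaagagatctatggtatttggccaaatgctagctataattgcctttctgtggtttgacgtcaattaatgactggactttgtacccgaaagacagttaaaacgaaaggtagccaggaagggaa
AGR2, chr7:16805000-16805249, minus strand: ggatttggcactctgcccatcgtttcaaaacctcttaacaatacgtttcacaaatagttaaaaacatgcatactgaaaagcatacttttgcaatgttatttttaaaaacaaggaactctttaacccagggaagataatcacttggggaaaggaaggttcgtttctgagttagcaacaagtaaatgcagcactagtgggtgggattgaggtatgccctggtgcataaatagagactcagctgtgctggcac
AGR3, chr7:16881984-16882233, minus strand: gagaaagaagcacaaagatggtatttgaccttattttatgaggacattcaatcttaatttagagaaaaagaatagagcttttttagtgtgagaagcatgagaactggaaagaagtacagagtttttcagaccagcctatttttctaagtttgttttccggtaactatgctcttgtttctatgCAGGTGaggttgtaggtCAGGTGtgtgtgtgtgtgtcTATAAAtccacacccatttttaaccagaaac

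The motifs were searched on both strands and none overlapped another in these windows. They were the TATA box TATAAA, found in 10.7% of all 35116 promoter windows of this length, the FOXA motif TGTTTAC (2.98%), the E-box CACCTG that ZEB and SNAI proteins bind (17.5%), the SPDEF core CCGGAT (5.85%), the AP-1 site TGANTCA (6.57%) and the XBP1 and CREB3 family element TGACGTG (1.68%). MUC1, higher in the resistant library, and AGR3, lower in it, both carried a TATA box and a pair of E-boxes, written CAGGTG on the printed strand of AGR3. The E-boxes began at -82 and -75 from the start in MUC1, and at -68 and -51 in AGR3. MUC13 held an AP-1 match at -178. SPDEF, AGR2 and GCNT3 matched none of the 6 motifs. GC content separated MUC1, at 66.0%, from its fellow members, which ranged from 36.4% in AGR3 to 50.8% in SPDEF, against a median of 58.0% over all windows. A match is a description of letters, not of a bound site.

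Read counts summed to 17086748 in the resistant and 16723181 in the parental library. CPM values are counts scaled to the library size, after the trimmed mean of M-values (TMM) correction. Genes reaching 1 CPM in 1 or both libraries were compared, and are called tested genes. The measure was the log2 ratio of resistant over parental counts, each raised by 0.5, and a gene counts here as 2-fold higher or lower if that ratio reached 1 or -1 and its exact 95% interval lay off 0. All intervals cover counting error only. Of 12245 genes compared, 1480 (12.1%) were higher in the resistant library and 1015 (8.29%) lower, 20.4% in either direction, around a median log2 ratio of 0.00.

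Of the 10 members, 4 were at least 2-fold higher in the resistant library (MUC5B, MUC1, MUC13 and GCNT3), 5 were at least 2-fold lower (TFF1, SPDEF, MUC5AC, AGR3 and AGR2), and TFF3 had 0 counts in both. These counts of 4 and 5 stand against the shares of 12.1% and 8.29% over all genes compared. The members were chosen with earlier results of these data known, so the counts are a description. All 9 also passed with the whole interval beyond 2-fold, a rule met by 8.96% of genes in the higher and 5.35% in the lower direction. By the deposited log2 values, where 7.56% of genes differed by 1 or more upward and 4.83% downward, 4 members were higher and 4 lower, MUC5AC missing with -0.94. The 4 members MUC5B, MUC1, MUC13 and AGR2 passed the filter in both libraries. GCNT3 passed only through the resistant library, and TFF1, SPDEF, MUC5AC and AGR3 only through the parental one, which fixed the direction of their differences, though not the size. These 5 are counted as a description. In bulk RNA, fewer cells of a kind and less RNA per cell cannot be told apart.

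**Figure D1:**
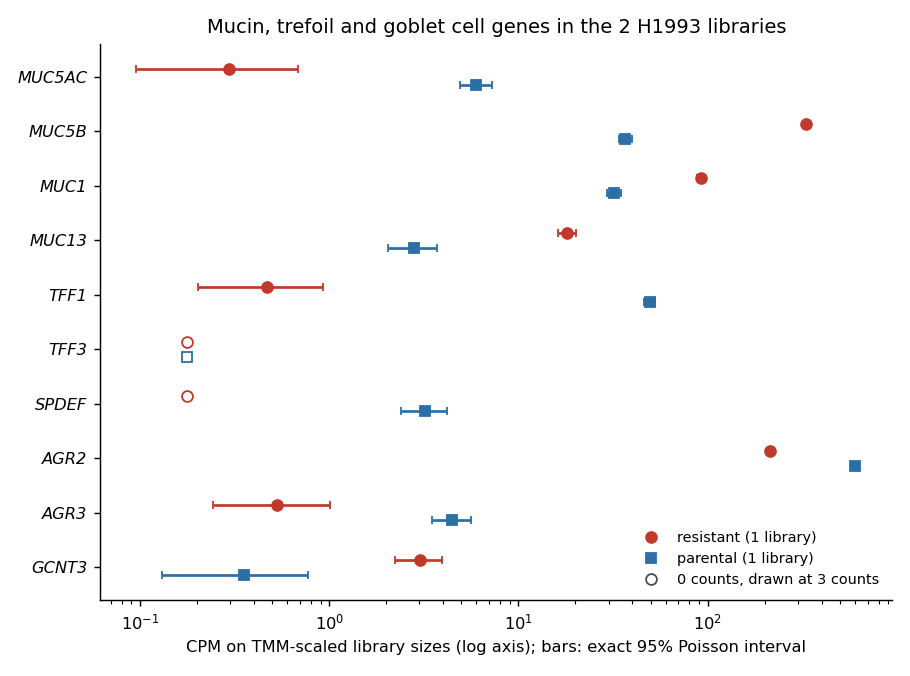
CPM of the 10 genes (log axis) in the resistant library (circles) and the parental library (squares), with exact 95% Poisson intervals; open symbols are 0 counts drawn at 3 counts. MUC5B, MUC1, MUC13 and GCNT3 lie further right in the resistant library, and MUC5AC, TFF1, SPDEF, AGR2 and AGR3 further right in the parental one.

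The gel-forming mucins differed in opposite directions. MUC5B, the main mucin of submucosal glands and of the resting airway, had 5600 counts in the resistant library against 619 in the parental one, or 330 CPM (321 to 339) against 36.8 CPM (33.9 to 39.8). It was 8.97-fold higher (8.26 to 9.76) and ranked 480 from the top by log2 ratio among the 12245 tested genes. MUC5AC, the mucin of airway surface goblet cells, had 5 counts in the resistant library against 101 in the parental one, or 0.295 CPM (0.0956 to 0.687) against 6.0 CPM (4.89 to 7.29). It was 18.6-fold lower (8.45 to 64.1). MUC5AC gave 0.0892% (exact 95% interval 0.0290 to 0.208%) of the summed counts of this pair in the resistant library and 14.03% (11.6 to 16.8%) in the parental library. MUC5B held most reads of the pair in both libraries.

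The membrane mucins were both higher. MUC1 had 1559 counts in the resistant library against 540 in the parental one, or 91.8 CPM (87.3 to 96.5) against 32.1 CPM (29.4 to 34.9), a level 2.86-fold higher (2.59 to 3.16). MUC13, best known from intestinal and gastric epithelium, had 307 counts in the resistant library and 47 in the parental one, or 18.1 CPM (16.1 to 20.2) against 2.79 CPM (2.05 to 3.71), which is 6.42-fold higher (4.75 to 9.0). None of these CPM intervals overlapped between the libraries, and the share of all tested genes for which this holds was not computed. The 4 mucin members together took 0.0437% (0.0427 to 0.0447%) of all counts in the resistant library and 0.00782% (0.00740 to 0.00825%) in the parental library, most of it MUC5B in the resistant one.

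TFF1 was lower and TFF3 was not detected. TFF1, the trefoil factor of gastric surface cells, had 8 counts in the resistant library against 832 in the parental one, or 0.471 CPM (0.203 to 0.929) against 49.4 CPM (46.1 to 52.9). At 98.8-fold lower (53.0 to 244), it ranked 33 from the bottom of the 12245 log2 ratios. TFF3, the trefoil factor of intestinal goblet cells, had 0 counts in both, which allows up to 0.177 CPM in the resistant and 0.178 CPM in the parental library. TFF2, the third trefoil factor, which is not among the members, had 1 count in the resistant library and 22 in the parental library, a ratio of 15.1-fold lower with a wide counting interval (3.59 to 916).

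SPDEF had 0 counts in the resistant library against 54 in the parental one. With 3 counts allowed for the 0, it stood below 0.177 CPM against 3.21 CPM (2.41 to 4.19). By the interval end nearest to no difference, SPDEF was at least 14.3-fold lower. The gene was scarce in the parental line too, so the fold is given only as a bound.

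The AGR genes were both lower, to different degrees. AGR2, the most abundant member in the parental library, had 3613 counts in the resistant library against 10078 in the parental one, or 213 CPM (206 to 219.9) against 599 CPM (587 to 610.5). It was 2.81-fold lower (2.71 to 2.92). AGR3 had 9 counts in the resistant library against 75 in the parental one, or 0.530 CPM (0.242 to 1.01) against 4.46 CPM (3.50 to 5.58), which is 8.01-fold lower (4.20 to 19.1). AGR3 reads were 0.248% (0.114 to 0.471%) of the summed AGR2 and AGR3 reads in the resistant library and 0.739% (0.581 to 0.925%) in the parental library. These intervals did not overlap, which is a description, since AGR3 passed the filter only through the parental library.

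GCNT3 had 51 counts in the resistant library against 6 in the parental one, or 3.0 CPM (2.24 to 3.95) against 0.356 CPM (0.131 to 0.776). It was 7.86-fold higher (3.62 to 24.0). It remained a scarce transcript in both libraries.

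**Figure D2:**
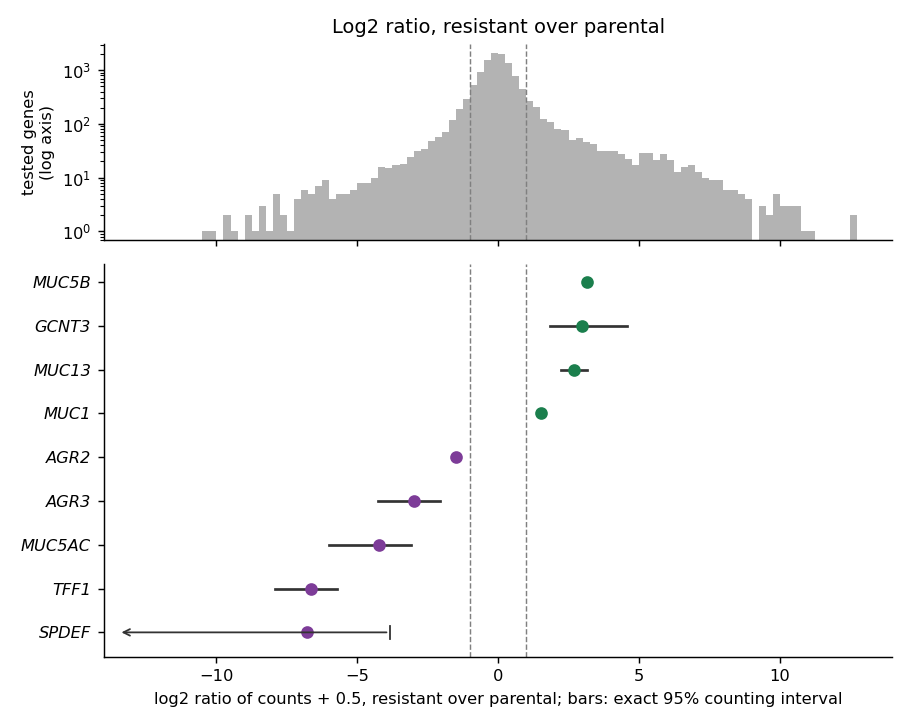
Top, the log2 ratio (resistant over parental) of all 12245 tested genes in bins, with the number of genes on a log axis; bottom, the 9 tested members with exact 95% counting intervals. Dashed lines mark 2-fold; the SPDEF point depends on the 0.5 added to its 0 counts, and its interval has no lower end.

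Levels can be compared between genes only per length. The deposited table also gives a normalized log2 value per gene, and 2 to that power, minus 1, behaved as a count divided by a gene length: per count, it was the same in both libraries to within 0.1 on the log2 scale, after a common shift of -0.01, for 97.7% of 10256 genes with at least 50 counts in each. On this length-scaled level, AGR2 led the members in the resistant library at 266 and ranked 281 of all genes there, followed by MUC1 at 56.1 (53.3 to 58.9), MUC5B at 17.9 (17.4 to 18.4) and MUC13 at 6.53 (5.82 to 7.30). TFF1 at 1.62 (0.701 to 3.20), GCNT3 at 1.44 (1.07 to 1.89) and AGR3 at 0.951 (0.435 to 1.81) followed, and these 3 did not differ beyond counting error. MUC5AC came last of those above 0, at 0.0497 (0.0161 to 0.116).

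In the parental library the order of length-scaled levels was another. AGR2, at 744, ranked 96 of all genes, and TFF1 came after it at 168 (157 to 180) and rank 471. MUC1 followed at 19.5 (17.9 to 21.2) and AGR3 at 7.93 (6.24 to 9.94). MUC5B at 2.0 (1.84 to 2.16) and SPDEF at 1.82 (1.37 to 2.37) did not differ beyond counting error, nor did MUC5AC at 1.01 (0.821 to 1.22) and MUC13 at 1.01 (0.740 to 1.34). Scaled by the longest GENCODE 29 coding transcript instead, in CPM per kb, MUC5AC was at 0.344 and MUC13 at 0.970 in the parental library, and MUC1 was at 22.03 in the resistant and 7.69 in the parental library. On that scale AGR2 was at 337, TFF1 at 89.7 and GCNT3 at 0.072 in the parental library. By the deposited length-scaled level GCNT3 was the lowest member above 0 there, at 0.170 (0.0625 to 0.371).

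The length behind each value bears on how the counts can be read. Dividing CPM on total counts by the length-scaled level gives the length implied by the deposited values. Over 10079 genes with a GENCODE 29 coding transcript it was 0.944 of the longest transcript in the median (quartiles 0.807 and 0.996). MUC5B was close to its 17.9 kb reference transcript, at 18.3 kb in the resistant and 18.6 kb in the parental library. MUC5AC was not: its implied length was 5.89 kb in the resistant and 5.99 kb in the parental library, while the 1 coding transcript in GENCODE 29 has 17.4 kb. Whether the counts cover only a stretch of MUC5AC was not tested, and its counts may then understate its level in both libraries, while its ratio uses the same gene model on both sides.

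The implied lengths of AGR2 (0.809 kb in the parental library), AGR3 (0.565 kb), MUC1 (1.66 kb) and GCNT3 (2.11 kb) were nearest to reference transcripts of 0.782, 0.563, 1.81 and 2.36 kb. The longest transcripts of these 4 genes have 1.78, 0.749, 4.17 and 4.93 kb. Implied and longest transcript lengths were close for MUC13, at 2.79 against 2.88 kb, and for SPDEF, at 1.78 against 1.90 kb. TFF1, with 1 coding transcript of only 0.551 kb, was at 0.296 kb. An implied length thus need not match any reference transcript, and which transcripts were counted was not tested.

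**Figure D3:**
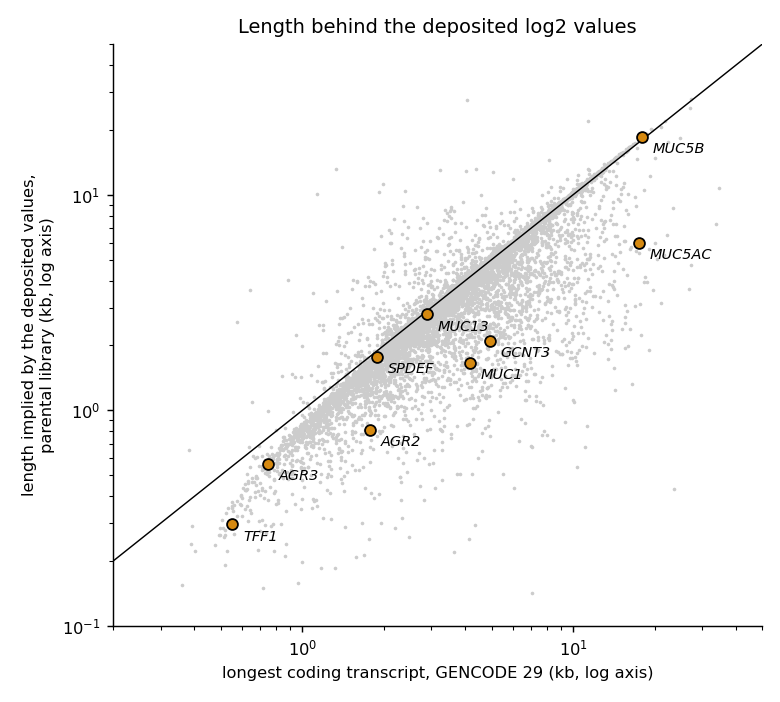
Length in kb implied by the deposited values of the parental library against the longest coding transcript in kb (both log axes), for 10079 genes (grey) and 9 members (orange); the line marks equal lengths. MUC5B lies on the line and MUC5AC, MUC1, GCNT3 and AGR2 lie well below it.

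Some sequence is shared between genes. Of the 50-base words in the longest transcript, 0.379% of those in MUC5AC also occurred in MUC5B, and 2.29% of those in MUC5B occurred in MUC5AC or in the antisense gene MUC5B-AS1. For GCNT3 1.13% of the words occurred in other genes, and for the remaining 7 members 0% did. Words repeated within the same transcript made up 42.4% of MUC1, 29.2% of MUC5B and 21.4% of MUC5AC, where mucin tandem repeats lie. MUC5B-AS1 covers 2.33% of the annotated MUC5B exon bases on the opposite strand, and the strand setting of the counting is not stated. How the authors' counting treated reads that fit several places is not given in the sources used here.

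Several members are chromosomal neighbours, so the nearest 3 tested genes on each side were read in RefSeq order. MUC5AC and MUC5B are adjacent on chromosome 11, at log2 ratios of -4.22 and 3.16. TOLLIP (-0.07), BRSK2 (-0.68) and MOB2 (0.32) beyond MUC5B, and AP2A2 (0.47) and CHID1 (-0.22) before MUC5AC, passed neither way, and TSPAN4 (1.27) was higher. MUC6 and MUC2, the gel-forming mucin genes of the same cluster, were too scarce to be tested, with 11 and 5 counts in the resistant library and 4 and 2 in the parental one. With 10 tested genes on each side of MUC5AC, 3 of 20 were lower, namely CRACR2B, IGF2 and ASCL2, and 4 were higher, MUC5B included. Over all tested genes 8.29% were lower and 12.1% higher.

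AGR2 and AGR3 are adjacent on chromosome 7, at -1.49 and -3.0. Around them ANKMY2 (0.69), BZW2 (0.22), TSPAN13 (-0.77) and the aryl hydrocarbon receptor gene AHR (-0.34) passed neither way, and SNX13 (1.13) was higher. Next beyond them HDAC9, at 1.70, was also higher. None of these 6 flanking genes was 2-fold lower. With 10 tested genes on each side of AGR2, 3 of 20 were lower, namely AGR3, MACC1 and ITGB8, and 7 were higher. The shares over all tested genes were 8.29% lower and 12.1% higher.

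TFF1 lies on chromosome 21. Of its 6 nearest tested genes, 5 were at least 2-fold lower: TFF2 (-3.92), the ciliary gene RSPH1 (-2.62), SLC37A1 (-1.24), the cGMP phosphodiesterase gene PDE9A (-4.23) and C2CD2 (-1.24), with ZBTB21 at -0.24. TFF2, RSPH1 and PDE9A passed the filter only through the parental library, which fixed their direction. PDE9A had 4 counts in the resistant library and 83 in the parental library, and SLC37A1 had 243 in the resistant and 570 in the parental library. At the same width of 10 on each side, chosen after the nearest values were seen, 8 of 20 were lower and 1 higher, with a median log2 ratio of -0.28. On all of chromosome 21, 17 of 109 tested genes were lower (15.6%) and 11 higher. The shares over all tested genes, for these counts of neighbours too, were 8.29% lower and 12.1% higher.

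The remaining members stood among genes that differed little or in mixed directions. SPDEF on chromosome 6 lay among 6 genes from -1.18 to -0.08, of which UHRF1BP1 was lower. MUC1 on chromosome 1 lay among genes from -0.04 to 1.57; the highest was TRIM46, with 19 counts in the resistant and 6 in the parental library. MUC13 on chromosome 3 lay next to the integrin gene ITGB5 (-0.88) and to HEG1 (1.30), which was higher, as was KALRN (1.32) further out. GCNT3 on chromosome 15 lay among genes from -0.93 to 0.70, none of them called.

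**Figure D4:**
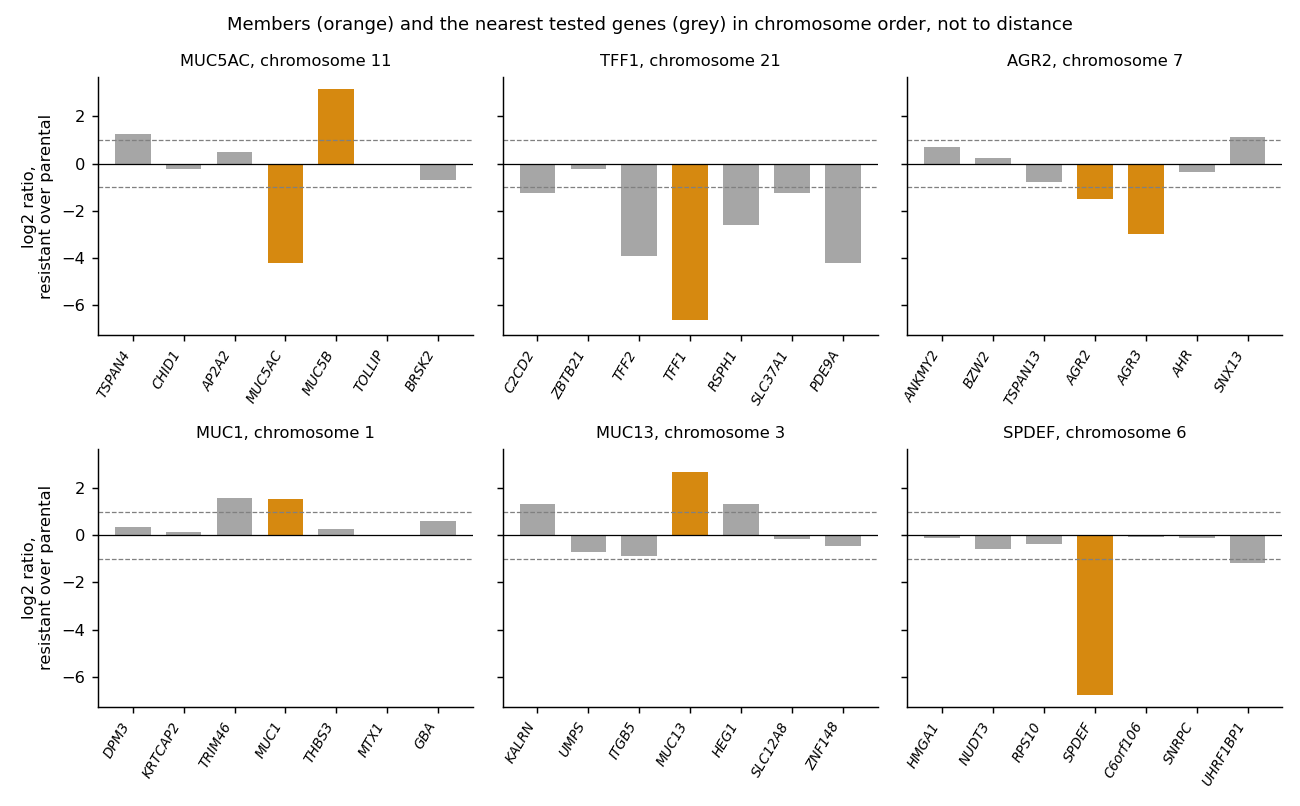
Log2 ratio (resistant over parental, counts plus 0.5) of 6 members and of the 3 nearest tested genes on each side in chromosome order; spacing is not to distance, orange marks members and dashed lines mark 2-fold. TFF1 has genes at least 2-fold lower on both sides, and MUC5AC and MUC5B point in opposite directions; the SPDEF bar depends on the 0.5 added to 0 counts.

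Of 18 other mucin genes listed, 14 were too scarce to be tested. Among the 4 tested, MUC16, which passed the filter only through the resistant library, was higher, at 19 counts in the resistant and 4 in the parental library (4.30-fold, 1.57 to 19.0), though the deposited log2 values differ by only 0.03. MUC20 (0.46), OVGP1 (-0.75) and the sialomucin gene CD164 (0.00, at 127 CPM in both libraries) passed neither way. Of the untested ones, MUC3A had 11 counts in the resistant and 0 in the parental library, and MUC7, MUC15, MUC17, MUC21 and MUC22 had 0 in both.

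Genes of secreted and surface products of mucous cells were lower in all 4 tested cases of 20 listed, against 8.29% over all tested genes. This list too was chosen with earlier results of these data known, so the count is a description. Without the filter on low counts, PIGR, with 7 counts in the resistant and 0 in the parental library, was higher. PSCA, a surface antigen of gastric and bladder epithelium, was at 36.6 CPM in the resistant and 137 CPM in the parental library, 3.74-fold lower (3.42 to 4.09). SLPI, a protease inhibitor gene, had 6.54 CPM in the resistant and 23.8 CPM in the parental library, 3.63-fold lower (2.95 to 4.54). ZG16B had 2 counts in the resistant and 38 in the parental library (15.5-fold lower, 4.95 to 164), and with TFF2 it passed the filter only through the parental library. Goblet cell products that define the cell in gut, CLCA1, ITLN1, RETNLB and REG4, had 0 counts in both libraries.

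Transcription factors linked to goblet and mucous fates passed neither way for 15 of 19 tested genes, with a median log2 ratio of 0.08 (-0.03 with at least 5 CPM). Of the others, 2 were higher and 2 lower, against 12.1% higher and 8.29% lower over all tested genes, so both shares were near those of all genes. Among the higher was STAT6, the mediator of interleukin 4 and 13 signals, with 767 counts in the resistant library against 2 in the parental one (304-fold higher, 105 to 3146). FOXA2, whose loss in mouse airway is followed by goblet cell hyperplasia, had 0 counts in the resistant and 19 in the parental library. It was at least 4.7-fold lower, and the epithelial factor gene GRHL2 was 2.11-fold lower (1.95 to 2.29). XBP1 ranked first of the list by its average CPM over the pair of libraries and had 142 CPM in the resistant and 123 CPM in the parental library. FOXA2 was tested through the parental library only, and STAT6 through the resistant library only.

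The folding machinery that AGR2 belongs to stayed within 2-fold, with 0 of 27 tested genes called, against 20.4% over all tested genes. Its median log2 ratio was 0.09, with 14 ratios above 0 and 13 below. HYOU1, named after its value was seen, lay just under the cut. It had 2510 CPM in the resistant and 1305 CPM in the parental library, 1.92-fold higher (1.89 to 1.95). CANX, the calnexin gene, ranked first of the list by its average CPM over the pair of libraries and had 2325 CPM in the resistant and 1715 CPM in the parental library (0.44). TXNDC12, the gene of the remaining AGR family protein, was at -0.82 and ERN1 at 0.09, both named after their values were seen. ERN2, the stress sensor of mucous cells, had 0 counts in both libraries.

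Enzymes of mucin O-glycosylation, other than GCNT3, were higher for 2 and lower for 3 of 18 tested genes, against 12.1% higher and 8.29% lower over all tested genes, so the share of higher genes was near that of all genes. GALNT13 passed the filter only through the parental library. The median was -0.15, and 0.09 without the filter on low counts. ST3GAL1, which caps core 1 glycans with sialic acid, had 55 counts in the resistant library against 6319 in the parental one (115-fold lower, 88.9 to 154). The initiating enzyme genes GALNT13 and GALNT3 were at least 107.7-fold and 2.66-fold lower (2.37 to 2.997). ST3GAL2 was 3.73-fold higher (3.01 to 4.68). GCNT1, which makes core 2 branches as GCNT3 does, was 2.72-fold higher (1.89 to 4.07), and GALNT2, first of the list by average CPM over the pair of libraries, was at 0.70.

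Granule exocytosis genes were higher for 4 and lower for 7 of 30 tested, against 12.1% higher and 8.29% lower over all tested genes, so the share of higher genes was near that of all genes. RAB37 and SYTL1 passed the filter only through the parental library, and STX11 only through the resistant one. The median was -0.12, and 0.05 without the filter on low counts. MLPH, the linker between RAB27 and myosin, was at 31.9 CPM in the resistant and 229 CPM in the parental library, 7.17-fold lower (6.56 to 7.86). SYTL1, a RAB27 effector, was 27.8-fold lower (16.0 to 58.6), RAB37 at least 13.4-fold lower and SYT7 4.04-fold lower (3.09 to 5.42). The higher genes included STX11 (2.43), VAMP2 (1.33) and CADPS2 (1.07).

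Ion and water transport genes, which set the hydration of mucus, were higher for 3 and lower for 5 of 12 tested, against 12.1% higher and 8.29% lower over all tested genes. CFTR, CA2 and SLC26A4 passed the filter only through the parental library and CA12 only through the resistant one, which fixed their direction. The median was -0.50. That median was -0.33 when 5 CPM were asked for, and -0.30 by the deposited log2 values. CFTR, the chloride and bicarbonate channel gene, had 1 count in the resistant library against 61 in the parental one (41.3-fold lower, 10.6 to 2469), and the sodium channel gene SCNN1A had 34 against 908 (26.6-fold lower, 19.1 to 39.1). The carbonic anhydrase gene CA2 had 1 against 103 counts (69.6-fold lower, 18.2 to 4141), and the anion exchanger gene SLC26A4 5 against 55 (10.2-fold lower, 4.48 to 35.5). Among the higher ones, the aquaglyceroporin gene AQP3 was at 155 CPM in the resistant and 46.5 CPM in the parental library (3.32-fold, 3.07 to 3.61), SLC26A6 was 2.16-fold higher (1.84 to 2.55) and CA12 had 30 counts against 1 (20.2-fold higher, 4.95 to 1214).

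**Figure D5:**
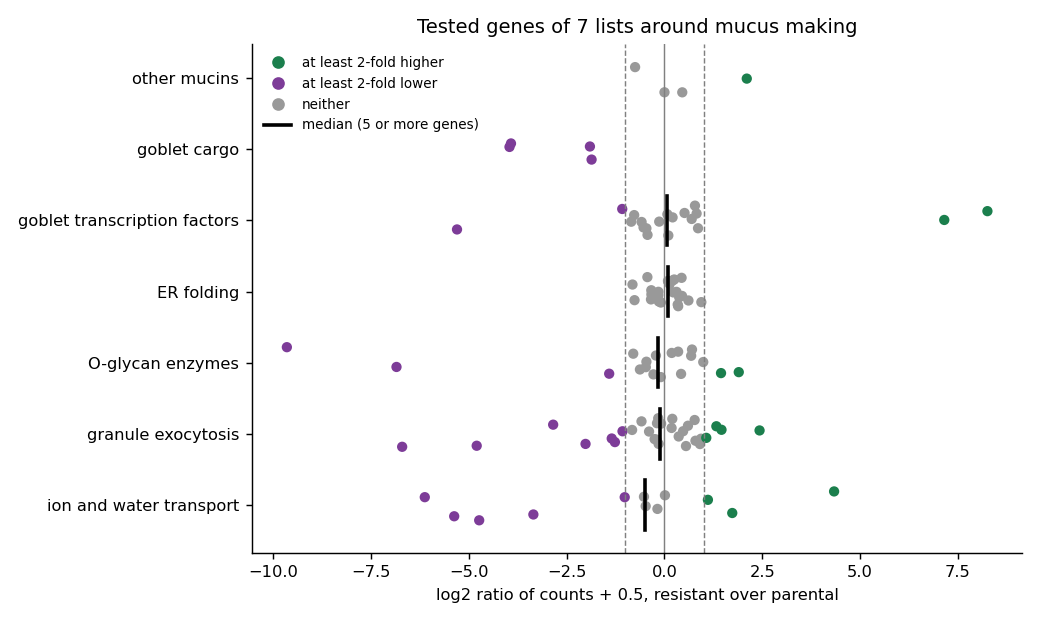
Log2 ratio (resistant over parental, counts plus 0.5) of the tested genes in 7 lists, 1 point per gene with random vertical spread; green and purple mark genes at least 2-fold higher and lower, and black bars the median of lists with 5 or more tested genes. Goblet cargo lies wholly on the lower side, while the other lists with calls extend both ways or stay within 2-fold; points of genes with 0 counts in 1 library depend on the 0.5 added.

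Markers of lung adenocarcinoma and epithelium were present in both libraries. KRT8 was at 3394 CPM in the resistant and 2666 CPM in the parental library, and EPCAM was 2.38-fold lower, at 164 CPM in the resistant and 389 CPM in the parental library. The lung factor gene NKX2-1 was at 5.95 CPM in the resistant and 4.16 CPM in the parental library, and the aspartic protease gene NAPSA had 0 counts in both. The epithelial list summed to 8389 CPM in the resistant and 7711 CPM in the parental library. For the alveolar type 2 list the sums were 129 CPM in the resistant and 81.5 CPM in the parental library, most of it ABCA3. Its 2 tested genes passed neither way, ABCA3 at 0.75 and LAMP3, named after its value was seen, at -0.87. The club cell list summed to 0.177 CPM in the resistant and 0.0594 CPM in the parental library. The basal cell list summed to 5.42 CPM in the resistant and 6.06 CPM in the parental library. Club cell markers SCGB1A1, SCGB3A1 and SCGB3A2 had 0 counts in both libraries, as had the alveolar genes SFTPA1 and SLC34A2.

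Gastric surface markers summed to 2.77 CPM in the resistant and 216 CPM in the parental library, most of it ANXA10, with GKN1 at 0 in both. Enterocyte markers summed to 0.177 CPM in the resistant and 2.26 CPM in the parental library, with VIL1 at 0 and 34 counts in these and FABP1 and CDX1 at 0 in both. Of 7 ciliated cell markers 5 were tested, with 2 higher and 3 lower, against 12.1% higher and 8.29% lower over all tested genes. The higher genes, TPPP3 and CCDC78, passed the filter only through the resistant library, and RSPH1 only through the parental one, which fixed their direction. The ciliated cell list summed to 12.6 CPM in the resistant and 44.7 CPM in the parental library. The master gene FOXJ1 had 0 counts in the resistant and 5 in the parental library. Fibroblast markers were at 14.96 CPM in sum in the resistant and 20.9 CPM in the parental library, most of it COL1A1, with DCN and THY1 at 0 in both. Immune markers were at 34.0 CPM in the resistant and 87.6 CPM in the parental library, most of it CD68, with CD3E and MS4A1 at 0 in both. Of the 3 tested, CD68 and PTPRC were lower and CD14 was higher, against 8.29% lower and 12.1% higher over all tested genes. CD14 had 33 counts in the resistant and 5 in the parental library. PTPRC passed the filter only through the parental library and CD14 only through the resistant one, which fixed their direction. Endothelial markers were at 29.2 CPM in the resistant and 0.356 CPM in the parental library, most of it CDH5, with KDR at 0 in both. The part of any of these in the differences above was not tested.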

How the data were processed

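TRIzol extraction and TruSeq library construction are given in the labels' protocols. The authors deposited raw counts by gene symbol. Beside each count stands a normalized log2 value, also deposited by the authors, whose normalization the file headers do not describe. FastQC and STAR are named in the submitters' processing notes without versions, and GRCh38 and hg19 are both named without a role, so no coordinates of the counted genes are given. The counting program, its annotation, strand setting and treatment of repeated sequence are not given in the sources used here.

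Libraries were scaled by TMM in edgeR 4.0.16 (R 4.3.3), to effective sizes of 16974207 in the resistant and 16834058 in the parental library. Ratios carry exact conditional binomial (Clopper-Pearson) 95% intervals and CPM values exact Poisson intervals (scipy 1.17.1), checked on simulated data. Reads are not independent molecules, so intervals and the floor of 3 counts cover counting error only. A fold against 0 counts, given as "at least", is the end of its 95% interval nearest to no difference. The columns were matched to samples by library name. GENCODE 29 transcripts gave lengths and shared words, and RefSeq (GRCh38.p14) gave gene order and promoter windows.

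The 10 members and 17 lists were chosen with earlier results of these data known. All members are named. From each list the text names up to 4 called genes in each direction by the interval end nearest 0, the most abundant gene, and genes at 0 or outside this rule where said; some listed genes are not reported here by name. Other scalings, filters, added counts, call rules and the deposited log2 values were tried as alternatives.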

Additional observations from a re-analysis of the deposited data

How the results depend on the processing

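The members kept their direction under the other scalings, with 2 added to each count and by the deposited log2 values; the filters and the interval rule leave the ratios as they are by construction. Over 60 pairs of a member and an alternative that gave a value, the side of the 2-fold rule was kept in 59. In the pairs from the filter alternatives it could not change, since a member still tested keeps its ratio and interval. The exception was MUC5AC with the deposited log2 values, which differed by -0.94. The deposited log2 values add 1 to the level before the logarithm, and the parental value of MUC5AC was 1.006, so a fall of more than 1.006 was out of reach. When 5 CPM were asked for in place of 1, GCNT3, SPDEF and AGR3 were no longer tested and gave no value, and 3 members were lower. Members higher numbered 4, and 3 with 5 CPM. Scaling by total counts or RLE size factors and adding 2 counts moved no count by over 1.5 times.

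Over all genes, 926 were higher and 591 lower with the deposited log2 values, and 655 lower with the whole interval beyond 2-fold. Without a filter on low counts, 2 other mucin genes and 1 goblet cargo gene were higher. With 5 CPM, 0 other mucin genes were higher, 2 goblet cargo genes lower, 1 goblet transcription factor higher and 1 lower, and 3 ion and water transport genes lower. With the whole interval beyond 2-fold, 0 other mucin genes and 1 O-glycan enzyme were higher and 1 goblet transcription factor was lower. With the deposited log2 values, 0 other mucin genes, 1 O-glycan enzyme, 2 exocytosis genes and 1 ion and water transport gene were higher, and 1 goblet transcription factor and 2 transport genes lower. Fewer genes tested accounts for the counts with 5 CPM, and more genes tested for those without the filter. The whole-interval rule is a stricter cut on the same ratios, which accounts for its counts. For the deposited log2 values the cause was not tested. No paired analysis was possible because each group has 1 library. Depth limits the members with under 10 counts in 1 library, namely MUC5AC, TFF1, AGR3, SPDEF and GCNT3, to wide intervals.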
